A study of Mus musculus with 43 samples.

Results

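The 36 genes described here belong to the unfolded protein response of the endoplasmic reticulum (ER) and to the ATF4 branch of the integrated stress response. They were chosen by symbol from the 21938 genes of the deposited count table, and all 36 were found. The chaperone arm holds 22 of them: 11 ER chaperones and co-factors, 3 disulphide isomerases, 5 genes of ER-associated degradation, and Xbp1, Ern1 and Atf6. The ATF4 arm holds the other 14: Eif2ak3, Atf4 and Ddit3, 5 enzymes of amino acid and folate metabolism, and 6 stress output genes. Polyadenylated RNA of the inferior lung lobe was sequenced in 43 mouse libraries. The groups were bleomycin mice given nintedanib (n = 17), bleomycin mice given vehicle (n = 16) and control mice given vehicle (n = 10). Bleomycin, a DNA-breaking antibiotic, induces lung fibrosis in rodents, and the study uses it as a model of idiopathic pulmonary fibrosis. Nintedanib is a tyrosine kinase inhibitor used against pulmonary fibrosis. The labels name the vehicle of the bleomycin mice as that of nintedanib and leave the control vehicle unnamed, so a vehicle difference cannot be told apart from bleomycin. Strain, sex, age, genotype, dose, route and day of sampling are not given in the labels used here.

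As background, unfolded proteins in the ER are sensed by 3 membrane proteins. IRE1 (gene Ern1) splices the Xbp1 messenger, ATF6 is cut to release a transcription factor, and both raise chaperones and degradation factors. The third sensor, PERK (gene Eif2ak3), phosphorylates the translation factor eIF2, which lowers protein synthesis while the mRNA of the transcription factor Atf4 is translated more. ATF4 is also reached through other eIF2 kinases, such as that for amino acid shortage, and raises amino acid synthesis and feedback genes. In the lung, secretory cells such as surfactant-making type 2 cells, plasma cells and collagen-making fibroblasts depend on ER folding capacity. Splicing, cleavage, phosphorylation and translation were not measured here, where only mRNA levels were read.

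Libraries held 13324549 to 18723538 counts in nintedanib mice, 13175246 to 19111457 in bleomycin vehicle mice and 13138281 to 17812995 in control mice, and 14836 genes were tested. Levels are given as CPM, the counts of a gene per 1000000 counts of its library, scaled between libraries with edgeR's TMM factors, which ranged over 0.933 to 1.09. Summed markers of alveolar type 2 cells were high in all 3 groups, at 21941 to 50494 CPM with nintedanib, 13992 to 50889 with bleomycin vehicle and 24051 to 32181 in control lungs. Transcripts of the adipocyte hormone gene Adipoq reached 1 CPM in 5 nintedanib, 0 bleomycin vehicle and 8 control libraries. The library numbers in the labels fall into 3 series of 33, 4 and 6 libraries, whose meaning is not stated. The tests between groups were also computed in 9 alternative settings. Each library was taken as 1 mouse. Nothing in the labels says how the libraries of a group were raised, so p-values measure only the spread between these samples. In such bulk tissue, fewer cells of a type and less RNA per cell cannot be told apart.

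The promoters of the genes are shown for the sites through which each arm is known to be read. The ER stress response element (ERSE), bound by NF-Y and cleaved ATF6 or XBP1, is CCAAT and CCACG separated by 9 bases. In RefSeq windows of 300 bases on GRCm38.p6, 250 before to 50 after a gene's start, it was found on either strand in 9 of the 19 chaperone-arm genes with a window. It was found in 0 of 14 ATF4-arm genes, in 37 of all 27025 genes (0.137%) and in 39 of all 32851 windows (0.119%). The matches follow, each read in the direction that matches, with the fixed letters in capitals.
Hspa5: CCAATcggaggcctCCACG
Hsp90b1, farther from the start: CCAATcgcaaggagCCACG
Hsp90b1, nearer to the start: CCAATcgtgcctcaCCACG
Calr: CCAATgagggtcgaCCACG
Canx: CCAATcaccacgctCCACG
Pdia6: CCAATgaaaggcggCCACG
Dnajc3: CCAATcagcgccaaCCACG
Creld2: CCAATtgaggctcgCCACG
Derl3: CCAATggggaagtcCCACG
Syvn1: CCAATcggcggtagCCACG
A related element, ERSE-II, is ATTGG and CCACG separated by 1 base. It was found in Herpud1 and Dnajb11, and in 0 of 14 ATF4-arm genes. Over the whole table it was in 12 windows (0.0365%) and 12 genes (0.0444%). The Dnajb11 match lies at or after the start.
Herpud1: ATTGGgCCACG
Dnajb11: ATTGGcCCACG
Atf6, Hyou1 and Manf were not matched to a window. No match overlapped a match of another motif in these genes.

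The composite C/EBP-ATF site, at which ATF4 with a C/EBP partner is known to act, was searched as TGATGNAA on both strands. It was found in 5 of 14 ATF4-arm genes (Asns, Chac1, Nupr1, Trib3 and Vldlr) and in 1 of 19 chaperone-arm genes (Herpud1). The share was 4.51% over all genes and 3.97% over all windows. The 14 ATF4-arm genes hold 16 windows, 5 of them with a match, and the Trib3 match lies at or after the start. The letters TGACGTGG, the core of an XBP1 site, were in no window of either arm and in 0.676% of all windows. The 250 bases before the RefSeq start are shown for 3 genes whose levels are followed below: Hspa5 as the main ER chaperone, Herpud1 as the gene with both kinds of site, and Asns as the ATF4-arm gene that rose with nintedanib. Each reads 5′ to 3′ along the gene, with the fixed letters of matches in capitals. The Hspa5 stretch lies at chr2:34771840-34772089 (plus strand) and holds an ERSE that ends 46 bases before the start.
Hspa5: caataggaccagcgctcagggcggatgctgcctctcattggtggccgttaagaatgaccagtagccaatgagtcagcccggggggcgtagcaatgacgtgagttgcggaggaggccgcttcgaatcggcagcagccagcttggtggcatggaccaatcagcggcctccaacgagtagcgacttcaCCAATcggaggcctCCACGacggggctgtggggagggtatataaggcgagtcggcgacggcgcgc
The Herpud1 stretch lies at chr8:94386179-94386428 (plus strand). It holds a C/EBP-ATF match on the opposite strand and, nearer to the start, the ERSE-II match.
Herpud1: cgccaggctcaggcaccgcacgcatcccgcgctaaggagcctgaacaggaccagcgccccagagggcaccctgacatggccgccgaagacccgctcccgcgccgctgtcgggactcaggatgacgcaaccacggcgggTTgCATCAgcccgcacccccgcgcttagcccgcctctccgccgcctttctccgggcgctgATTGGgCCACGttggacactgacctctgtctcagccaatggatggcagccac
The Asns stretch lies at chr6:7693210-7693459 (minus strand) and holds a C/EBP-ATF match that ends 15 bases before the start.
Asns: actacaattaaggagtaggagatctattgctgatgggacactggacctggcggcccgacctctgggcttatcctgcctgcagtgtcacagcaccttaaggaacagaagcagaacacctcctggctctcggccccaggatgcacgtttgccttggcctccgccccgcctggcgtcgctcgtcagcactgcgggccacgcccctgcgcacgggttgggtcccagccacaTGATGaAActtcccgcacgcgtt
The gene coordinates given below are from GENCODE vM21, whose outermost start differs from the RefSeq start. For Hspa5 and Asns it lies farther upstream, so the marked matches fall inside the GENCODE extent of these genes. The matches describe letters only, since no binding was measured.

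In bleomycin vehicle lungs, most ER chaperones and isomerases were more abundant than in control lungs. Genes of the ATF4 arm were called in both directions, with Psat1, Sesn2 and Mthfd2 higher and Atf4 itself lower. Of the chaperone arm, 13 of 22 genes rose and 2 fell (edgeR quasi-likelihood test, Benjamini-Hochberg adjusted p under 0.05 over all tested genes). Of the ATF4 arm, 3 of 14 rose and 5 fell. Over all tested genes 29.5% rose and 28.3% fell, and those shares are the background for both counts (57.9% in either direction, beside 23 of the 36 genes). The median log2 fold change was 0.23 in the chaperone arm, 0.00 in the ATF4 arm and -0.01 over all tested genes. The groups did not overlap for 6 of the 36 genes, against 5.54% of all tested genes. Without the libraries that hold Adipoq, which leaves 2 control mice, 8 chaperone-arm genes rose and 1 fell, while 3 ATF4-arm genes rose and 4 fell. Over all genes, calls were also fewer in that fit, with 2050 of 15276 tested genes higher and 1604 lower.

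With nintedanib, 6 of the 11 ER chaperones and co-factors rose over vehicle by small steps, and no gene of either arm fell. Of the chaperone arm, 7 of 22 genes rose: Hspa5, Hsp90b1, Dnajb9, Dnajc3, Hyou1, Creld2 and Herpud1. Of the ATF4 arm, 1 of 14 rose, namely Asns. Over all tested genes 3.21% rose and 4.10% fell, 7.31% in either direction, beside 8 of the 36 genes. None of the 36 genes was lower at an unadjusted p under 0.05 or in DESeq2 (0 of 36 each). At an unadjusted p under 0.05, 18 of the 36 were higher, beside 1699 higher and 1911 lower of all 14836 tested genes. DESeq2 called 9 of the 36 higher, beside 601 higher and 773 lower over all tested genes. All 22 chaperone-arm fold changes were positive, with a median of 0.12 on the log2 scale, against 0.07 in the ATF4 arm and -0.00 over all tested genes. With scaling to library totals 21 of the 22 were positive. Every gene's range in nintedanib lungs overlapped its range in vehicle lungs, as for all tested genes (0.00% without overlap). Without the Adipoq-holding libraries 4 chaperone-arm genes rose, and with 2 surrogate variables (unlabelled variation estimated from the counts) as covariates 14 rose. Over all genes, 248 of 15276 rose and 277 fell in the first of these fits. In the second, 746 of 14836 rose and 562 fell.

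**Figure D1:**
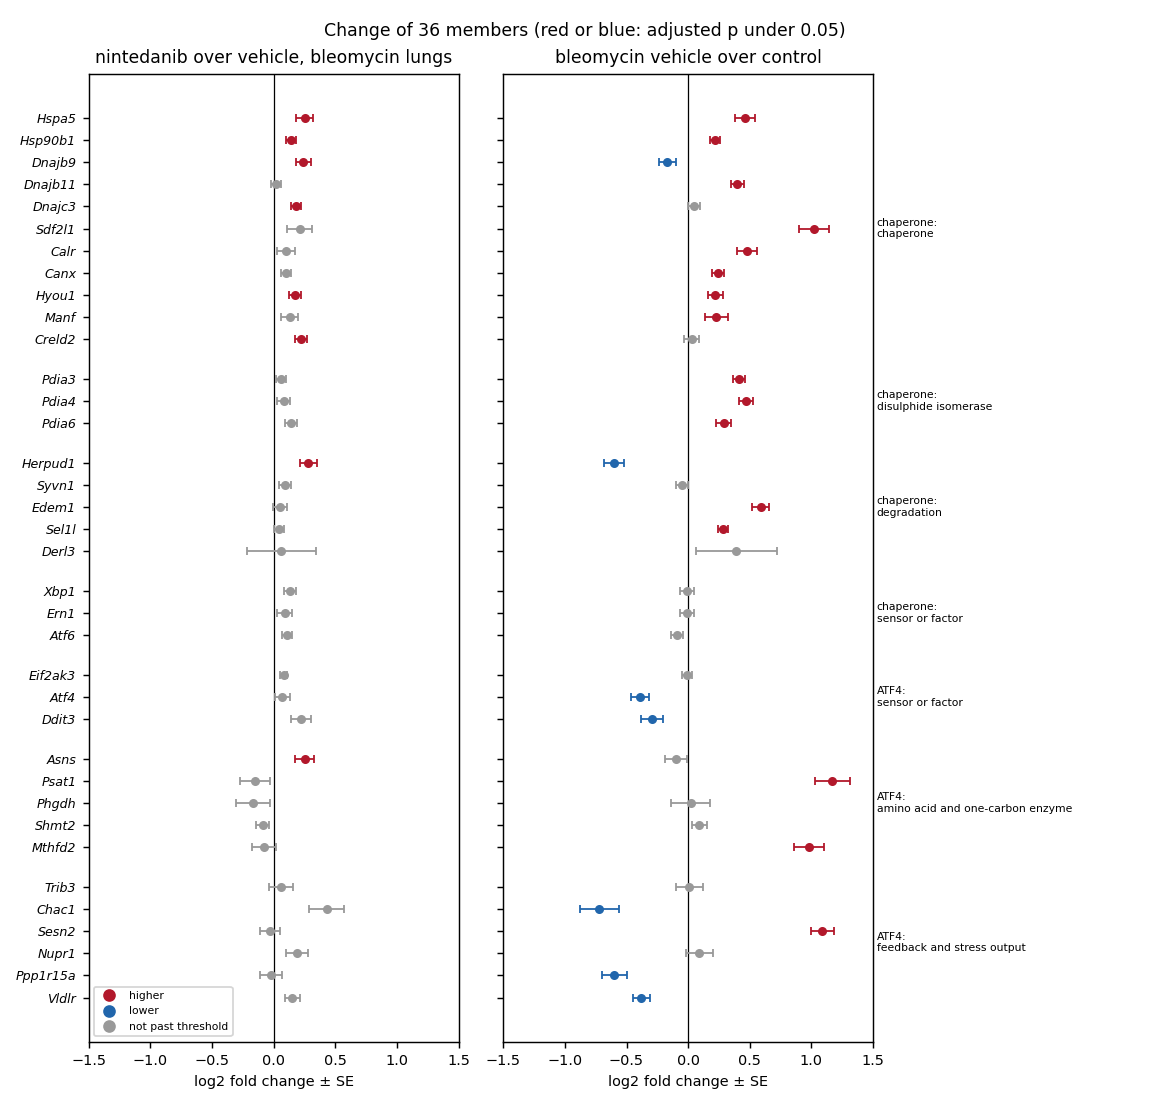
Log2 fold change with its standard error (horizontal axis) of each of the 36 genes (vertical axis, grouped by role) for nintedanib over vehicle in bleomycin lungs and for bleomycin vehicle over control. Coloured points passed an adjusted p of 0.05. All 22 chaperone-arm points lie above 0 under nintedanib, where 7 passed, and points lie on both sides of 0 in bleomycin vehicle against control lungs.

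Set per kilobase of exon, Calr, Pdia3 and Hspa5 had the highest median levels in control lungs, at 172, 139 and 119 CPM per kb. Derl3 had the lowest, at 0.954 CPM per kb. Among ATF4-arm genes, Atf4 itself was the most abundant in control lungs at 77.1 CPM per kb, followed by Nupr1 at 36.2 CPM per kb, and Mthfd2 was the least abundant at 1.75 CPM per kb. The genes thus differ in depth: Chac1, which degrades glutathione, had 1.09 to 8.87 CPM over all 43 libraries, whereas Hspa5 had 449 to 1025 CPM.

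Hspa5 (ENSMUSG00000026864, chr2:34771970-34777547 on GRCm38) encodes BiP, the main Hsp70 of the ER lumen. It had 626 to 1025 CPM in nintedanib lungs (median 824), 535 to 822 CPM in bleomycin vehicle lungs (median 716) and 449 to 588 CPM in control lungs (median 505). Every nintedanib lung lay above all control lungs, while the nintedanib and vehicle ranges overlapped over much of their width. In bleomycin vehicle lungs Hspa5 rose by 0.46 ± 0.08 (log2 fold change ± SE, adjusted p = 3e-06), higher in 16 of 16 lungs than the control median. With nintedanib it rose by a further 0.25 ± 0.07 over bleomycin vehicle (adjusted p = 0.017), higher in 14 of 17 lungs than the vehicle median. Without the Adipoq-holding libraries the nintedanib step was 0.29 (adjusted p = 0.024).

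Hsp90b1, the ER Hsp90, had 401 to 505 CPM with nintedanib (median 455), 338 to 476 CPM with vehicle (median 417) and 327 to 383 CPM in control lungs (median 351). It shifted in the same order as Hspa5, with smaller steps. The nintedanib step was 0.14 ± 0.04 on the log2 scale (adjusted p = 0.023). It did not pass with scaling to library totals, nor without the Adipoq-holding libraries (adjusted p = 0.07 without them). The bleomycin vehicle step was 0.22 ± 0.04 (adjusted p = 4.8e-05), and it too did not pass without those libraries (adjusted p = 0.116). Hyou1, a large Hsp70 relative that exchanges nucleotide on BiP, had 160 to 231 CPM with nintedanib (median 195), 135 to 207 CPM with vehicle (median 181) and 136 to 177 CPM in control lungs (median 144). All nintedanib lungs exceeded the control median. Its nintedanib step was 0.17 ± 0.05 (adjusted p = 0.042), which did not pass in 3 of the 9 alternatives, among them the fit without Adipoq-holding libraries (adjusted p = 0.079). Hyou1 rose by 0.22 ± 0.06 in bleomycin vehicle lungs (adjusted p = 0.0024), which did not pass without those libraries (adjusted p = 0.41) or with surrogate variables (adjusted p = 0.085).

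The J-domain co-chaperones of BiP did not move alike. Dnajc3 (p58IPK) had 227 to 300 CPM with nintedanib (median 270), 204 to 252 CPM with vehicle (median 237) and 187 to 242 CPM in control lungs (median 226). Of the nintedanib lungs, 16 of 17 lay above the vehicle median, and the gene rose by 0.18 ± 0.04 (adjusted p = 0.0032). Between bleomycin vehicle and control lungs it differed by 0.05 ± 0.05 (adjusted p = 0.326). Dnajb9 (ERdj4) had 49.1 to 77 CPM with nintedanib (median 60.9), 39 to 61.7 CPM with vehicle (median 51.6) and 44.4 to 66.6 CPM in control lungs (median 57). The vehicle lungs had the lowest median of the 3 groups. Dnajb9 fell by 0.17 ± 0.07 in bleomycin vehicle against control lungs (adjusted p = 0.041) and rose by 0.24 ± 0.06 with nintedanib over vehicle (adjusted p = 0.016). Its fall did not pass in libraries of the largest number series alone (adjusted p = 0.066), without the Adipoq-holding libraries or with surrogate variables. Dnajb11 (ERdj3), a secreted member, had 97.9 to 121 CPM with nintedanib, 92.7 to 126 CPM with vehicle and 76.6 to 88.5 CPM in control lungs. No control lung overlapped the bleomycin vehicle lungs, where it rose by 0.40 ± 0.05 (adjusted p = 2.1e-09), and the nintedanib step was 0.02 ± 0.04 (adjusted p = 0.823).

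Sdf2l1, which works with Dnajb11 in a BiP complex, had 25.5 to 46.4 CPM with nintedanib (median 35.8), 17.2 to 43.1 CPM with vehicle (median 31.3) and 12.3 to 17.1 CPM in control lungs (median 15.6). The lowest vehicle lung lay just above the highest control lung. Sdf2l1 rose by 1.02 ± 0.12 in bleomycin vehicle lungs (adjusted p = 2.2e-09), the largest rise in the chaperone arm. Its nintedanib step was 0.21 ± 0.10 and did not pass (adjusted p = 0.179), though 15 of 17 lungs lay above the vehicle median. Creld2, a secreted ER stress protein, had 48.5 to 72.9 CPM with nintedanib (median 59.4), 37.5 to 60.5 CPM with vehicle (median 50) and 41.6 to 53.3 CPM in control lungs (median 48.7). It was highest by median with nintedanib, rising by 0.22 ± 0.05 over vehicle (adjusted p = 0.0092), with 16 of 17 lungs above the vehicle median. Between bleomycin vehicle and control lungs it differed by 0.03 ± 0.06 (adjusted p = 0.676). Without the Adipoq-holding libraries the nintedanib step of Creld2 was 0.21 (adjusted p = 0.051). Manf, a secreted neurotrophic factor of the ER, rose by 0.23 ± 0.09 in bleomycin vehicle lungs (adjusted p = 0.023), with a nintedanib step of 0.13 ± 0.07 (adjusted p = 0.291). The rise of Manf did not pass in 4 of 9 alternatives: library totals, the largest number series alone, without the Adipoq-holding libraries and with surrogate variables.

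The lectin chaperones Calr and Canx fold glycoproteins. Calr had 590 to 889 CPM with nintedanib (median 726), 485 to 857 CPM with vehicle (median 709) and 414 to 553 CPM in control lungs (median 497). The 2 bleomycin groups lay mostly above the control lungs and nearly coincided with each other. Calr rose by 0.48 ± 0.08 in bleomycin vehicle lungs (adjusted p = 2.6e-06), and its nintedanib step was 0.10 ± 0.07 (adjusted p = 0.388). Canx rose by 0.24 ± 0.05 in bleomycin vehicle lungs (adjusted p = 3.8e-05), with a nintedanib step of 0.10 ± 0.04 (adjusted p = 0.128). Without the Adipoq-holding libraries neither bleomycin rise passed (adjusted p = 0.053 for Calr and 0.106 for Canx). All 3 disulphide isomerases, which form and reshuffle disulphide bonds, rose in bleomycin vehicle lungs, beside 29.5% of all tested genes. For none did the nintedanib step pass, where 3.21% of all tested genes rose and 4.10% fell. With nintedanib 1 of the 3 was higher at an unadjusted p under 0.05, beside 1699 of all 14836 tested genes. In bleomycin vehicle lungs Pdia3 rose by 0.41 ± 0.05 and Pdia4 by 0.47 ± 0.06. Each had no overlap between bleomycin vehicle and control lungs, as did 5.54% of all tested genes. Pdia6 had 362 to 521 CPM with nintedanib (median 419), 314 to 439 CPM with vehicle (median 376) and 285 to 354 CPM in control lungs (median 299). The groups stood in that order by median, with overlap between neighbours. Pdia6 rose by 0.29 ± 0.06 in bleomycin vehicle lungs (adjusted p = 5.1e-05), and its nintedanib step was 0.14 ± 0.05 (adjusted p = 0.07).

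**Figure D2:**
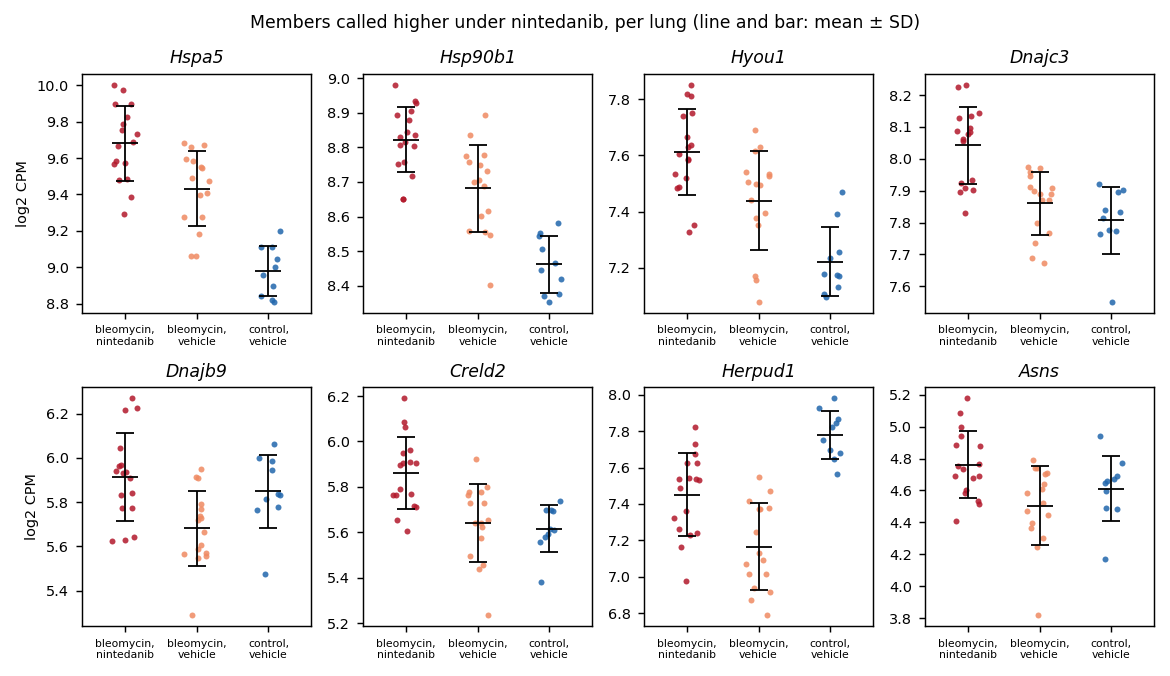
Log2 CPM (vertical axis) of the 8 genes that rose with nintedanib, 1 point per lung in the nintedanib, bleomycin vehicle and control groups, with mean ± SD. Hspa5 and Hsp90b1 stand in the order nintedanib, vehicle, control from high to low, and Herpud1 is highest in control lungs.

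Of the 5 degradation genes, 2 rose (Edem1 and Sel1l) and 1 fell (Herpud1) in bleomycin vehicle lungs, beside 29.5% and 28.3% of all tested genes. Herpud1 (ENSMUSG00000031770, chr8:94386438-94395377), an ER membrane protein of the retrotranslocation complex, had 126 to 227 CPM with nintedanib (median 185), 110 to 187 CPM with vehicle (median 138) and 189 to 253 CPM in control lungs (median 221). Every vehicle lung lay below every control lung, and the nintedanib lungs lay between them by median. Herpud1 fell by 0.60 ± 0.08 in bleomycin vehicle lungs (adjusted p = 7.1e-08). With nintedanib it was 0.28 ± 0.07 higher than with vehicle (adjusted p = 0.013), and against control lungs its log2 fold change was -0.32 ± 0.08 (adjusted p = 0.0013). These comparisons share the vehicle or the control mice. Edem1, which routes misfolded glycoproteins to degradation, had 76 to 112 CPM with nintedanib (median 99), 66.4 to 110 CPM with vehicle (median 94.8) and 54.7 to 73.2 CPM in control lungs (median 61). It was lowest in control lungs, with close medians in both bleomycin groups. Edem1 rose by 0.59 ± 0.07 in bleomycin vehicle lungs (adjusted p = 1.1e-09), with a nintedanib step of 0.05 ± 0.06 (adjusted p = 0.605). Sel1l, the scaffold of the ubiquitin ligase, rose by 0.28 ± 0.04 (adjusted p = 5.7e-07), while its ligase Syvn1 (HRD1) differed by -0.05 ± 0.05 (adjusted p = 0.412). Derl3, of the Derlin channel family, had 1.01 to 6.44 CPM with nintedanib (median 2.27), 0.938 to 12.5 CPM with vehicle (median 2.08) and 1.32 to 3.86 CPM in control lungs (median 1.9). Its medians were close and the vehicle group reached farthest up. The difference of 0.39 ± 0.33 between bleomycin vehicle and control lungs did not pass (adjusted p = 0.317).

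The mRNAs of the sensors did not pass in any of the 3 comparisons. Ern1 had 65.8 to 98.1 CPM with nintedanib (median 78.8), 53.2 to 89.2 CPM with vehicle (median 75.6) and 68.3 to 93 CPM in control lungs (median 75.2). Atf6 had 86.9 to 119 CPM with nintedanib (median 104), 82.5 to 112 CPM with vehicle (median 95.9) and 91.3 to 110 CPM in control lungs (median 101). Eif2ak3 had 36.5 to 46.6 CPM with nintedanib (median 43), 35.9 to 44.4 CPM with vehicle (median 40.3) and 35.8 to 44.3 CPM in control lungs (median 40.3). For all 3 genes the groups overlapped almost fully. Their nintedanib steps were 0.09 ± 0.06 for Ern1, 0.11 ± 0.04 for Atf6 and 0.08 ± 0.03 for Eif2ak3 (adjusted p = 0.317, 0.095 and 0.16). Xbp1, the spliced target of IRE1, had 197 to 278 CPM with nintedanib (median 238), 160 to 244 CPM with vehicle (median 216) and 197 to 234 CPM in control lungs (median 215). Its total mRNA stood slightly higher with nintedanib, by 0.13 ± 0.05 (adjusted p = 0.083), and differed by -0.01 ± 0.06 between bleomycin vehicle and control lungs (adjusted p = 0.89). Gene counts do not separate spliced from unspliced Xbp1.

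Atf4 (ENSMUSG00000042406, chr15:80255184-80257541) had 120 to 180 CPM with nintedanib (median 144), 115 to 179 CPM with vehicle (median 134) and 154 to 204 CPM in control lungs (median 182). All bleomycin lungs, with nintedanib or vehicle, lay below the control median. Atf4 fell by 0.39 ± 0.07 in bleomycin vehicle lungs (adjusted p = 3.4e-06), and its nintedanib step was 0.07 ± 0.06 (adjusted p = 0.448). Ddit3 (CHOP), a transcription factor downstream of ATF4, had 8.49 to 15 CPM with nintedanib (median 10.2), 6.38 to 12.9 CPM with vehicle (median 8.47) and 9.28 to 14.5 CPM in control lungs (median 10.9). The vehicle group was the low one, and all 17 nintedanib lungs lay above its median. Ddit3 fell by 0.29 ± 0.09 in bleomycin vehicle lungs (adjusted p = 0.0077), and its nintedanib step of 0.22 ± 0.08 did not pass (adjusted p = 0.087). The fall did not pass without the Adipoq-holding libraries (adjusted p = 0.23) or with surrogate variables (adjusted p = 0.1). The annotation holds a second Ddit3 entry that overlaps the gene and had 0 counts, so reads in the shared stretch may be missing from these values.

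Of the 5 enzymes of the ATF4 arm, 2 rose in bleomycin vehicle lungs (Psat1 and Mthfd2), beside 29.5% of all tested genes. Psat1, of serine synthesis, had 17.6 to 34.1 CPM with nintedanib (median 26.7), 12.7 to 39.4 CPM with vehicle (median 28.1) and 8.44 to 14.4 CPM in control lungs (median 12.9). Mthfd2, of the mitochondrial folate cycle, had 8.62 to 13.7 CPM with nintedanib (median 10.8), 7.13 to 18.2 CPM with vehicle (median 11.8) and 4.07 to 7.58 CPM in control lungs (median 6.09). Both were high in the bleomycin groups, and every nintedanib lung exceeded every control lung for both genes. In bleomycin vehicle lungs Psat1 rose by 1.17 ± 0.14 (adjusted p = 6.8e-09) and Mthfd2 by 0.98 ± 0.12 (adjusted p = 1.5e-08). Their nintedanib steps were -0.15 ± 0.12 and -0.08 ± 0.10 (adjusted p = 0.431 and 0.68). Phgdh and Shmt2, enzymes of the same route to serine and glycine, did not pass: Phgdh differed by 0.02 ± 0.16 and Shmt2 by 0.09 ± 0.06 between bleomycin vehicle and control lungs. Asns (ENSMUSG00000029752, chr6:7675169-7693254), asparagine synthetase, had 21.1 to 36.1 CPM with nintedanib (median 26.5), 14 to 27.5 CPM with vehicle (median 23.4) and 17.9 to 30.6 CPM in control lungs (median 25.1). It was the highest by median with nintedanib, and 14 of 17 lungs lay above the vehicle median. Asns rose by 0.25 ± 0.08 with nintedanib (adjusted p = 0.033) and differed by -0.10 ± 0.09 between bleomycin vehicle and control lungs (adjusted p = 0.323). Its rise did not pass in 4 of 9 alternatives, with adjusted p between 0.056 and 0.083 in them.

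The stress output genes moved both ways with bleomycin. Sesn2, a leucine sensor that restrains mTORC1, had 28.5 to 59.4 CPM with nintedanib (median 42.2), 33 to 55.5 CPM with vehicle (median 45.1) and 16.9 to 26.1 CPM in control lungs (median 21.4). No bleomycin lung of either group overlapped the control lungs. Sesn2 rose by 1.09 ± 0.09 in bleomycin vehicle lungs (adjusted p = 5.4e-13), the smallest p of the 36 genes, and its nintedanib step was -0.03 ± 0.08 (adjusted p = 0.866). Sesn2 is also a known p53 target.

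Chac1 had 4.14 to 7.86 CPM with nintedanib (median 5.01), 1.09 to 6.41 CPM with vehicle (median 3.57) and 4.84 to 8.87 CPM in control lungs (median 6.2). The vehicle group spread lowest, and all 17 nintedanib lungs lay above its median. Chac1 fell by 0.72 ± 0.16 in bleomycin vehicle lungs (adjusted p = 0.00019), and its nintedanib step of 0.43 ± 0.14, the largest among the 36 genes, did not pass (adjusted p = 0.051). Ppp1r15a (GADD34), which directs dephosphorylation of eIF2, had 37.5 to 61.1 CPM with nintedanib (median 46.1), 28 to 67.8 CPM with vehicle (median 47.8) and 53.6 to 94.4 CPM in control lungs (median 69.8). Both bleomycin groups lay below the control median in every lung. Ppp1r15a fell by 0.60 ± 0.10 in bleomycin vehicle lungs (adjusted p = 2.4e-06), with a nintedanib step of -0.02 ± 0.09 (adjusted p = 0.901). Vldlr, a lipoprotein receptor, had 44.9 to 65.1 CPM with nintedanib (median 61.1), 38.1 to 63.1 CPM with vehicle (median 51.3) and 62.2 to 88.5 CPM in control lungs (median 67.2). Only the lowest control lungs reached the bleomycin ranges. Vldlr fell by 0.38 ± 0.07 in bleomycin vehicle lungs (adjusted p = 1.8e-05), with a nintedanib step of 0.15 ± 0.06 (adjusted p = 0.118). Trib3, a pseudokinase that feeds back on ATF4, and Nupr1, a small stress protein, did not pass in either comparison. Trib3 differed by 0.01 ± 0.11 and Nupr1 by 0.09 ± 0.11 between bleomycin vehicle and control lungs.

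**Figure D3:**
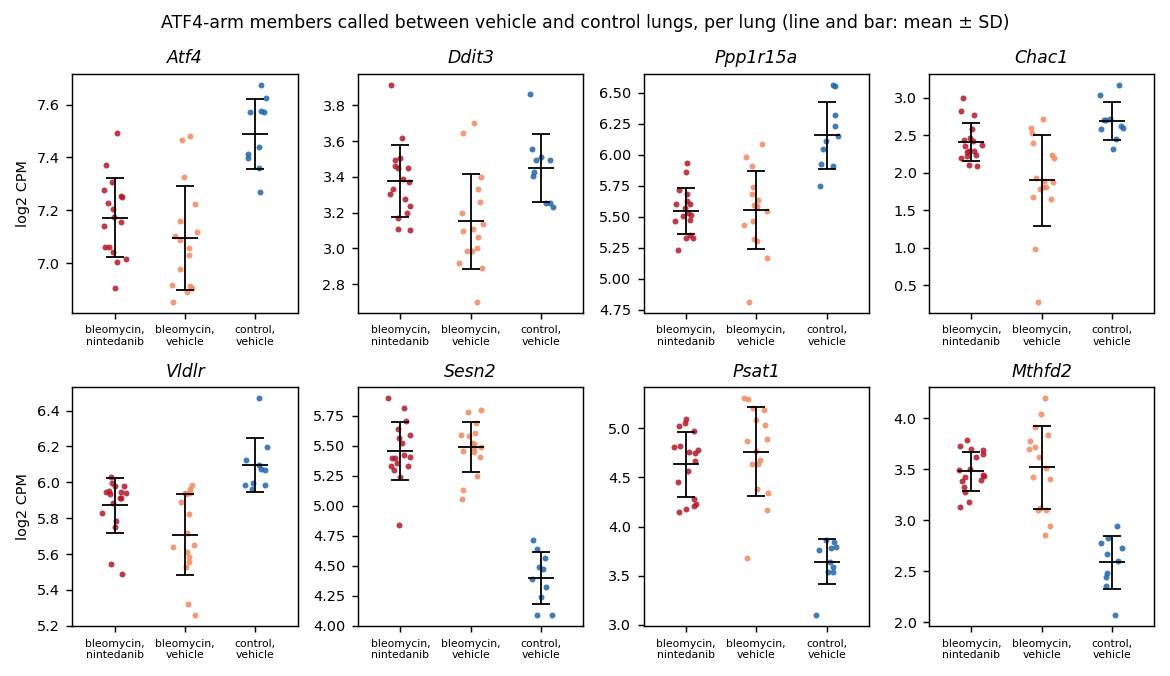
Log2 CPM (vertical axis) of the 8 ATF4-arm genes that rose or fell in bleomycin vehicle against control lungs, 1 point per lung in the nintedanib, bleomycin vehicle and control groups, with mean ± SD. Sesn2, Psat1 and Mthfd2 are high in both bleomycin groups, and Atf4, Ddit3, Ppp1r15a, Chac1 and Vldlr have their highest mean in control lungs.

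Against control lungs, most of the chaperone arm was higher in nintedanib lungs, while the ATF4 arm was called in both directions at shares close to those over all genes. In the chaperone arm 15 of 22 genes rose and 1 fell, and in the ATF4 arm 4 of 14 rose and 3 fell, beside 28.1% and 25.1% over all tested genes (53.2% in either direction). The groups did not overlap for 14 of the 36 genes, 11 in the chaperone arm and 3 in the ATF4 arm, against 7.37% of all tested genes. Hspa5 rose by 0.71 ± 0.08 (adjusted p = 4.9e-10), Sdf2l1 by 1.23 ± 0.12 (adjusted p = 2.5e-11) and Creld2 by 0.25 ± 0.06 (adjusted p = 0.00061). Nupr1 rose by 0.28 ± 0.11 (adjusted p = 0.025), a call lost in 3 of 9 alternatives. Atf4 differed by -0.31 ± 0.07 (adjusted p = 8.4e-05), Ppp1r15a by -0.62 ± 0.10 (adjusted p = 1.2e-06) and Vldlr by -0.23 ± 0.07 (adjusted p = 0.0067), and these fell. Without the Adipoq-holding libraries the calls of Creld2, Vldlr, Dnajc3, Hyou1, Manf, Herpud1 and Nupr1 were lost in this comparison. Chac1 and Ddit3 had differences of -0.29 ± 0.16 and -0.07 ± 0.09 from control lungs that did not pass (adjusted p = 0.122 and 0.538). These lungs and the vehicle lungs were set against the same control mice.

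Between lungs of the same group, genes of the chaperone arm varied together more than genes of the ATF4 arm. Over log2 CPM centred by group in 43 libraries, the median Pearson r was 0.28 for the 231 pairs within the chaperone arm, -0.03 for the 91 pairs within the ATF4 arm and 0.06 for the 308 pairs between arms. An r above 0.5 was found for 65, 5 and 20 of those pairs. The points share library, depth and cell makeup, so these values are descriptions. Medians within the chaperone and ATF4 arms were 0.40 and -0.01 in nintedanib lungs and 0.24 and -0.00 in vehicle lungs. In control lungs they were closer, at 0.22 and 0.08. Several ATF4-arm genes, such as Chac1 and Mthfd2, had low counts, and the part of counting error in their r was not tested. The closest pairs were Sdf2l1 with Calr (r = 0.93), Pdia6 with Calr (0.88), Manf with Creld2 (0.87) and Hspa5 with Pdia6 (0.86). Herpud1 had a median r of -0.21 with the rest of its arm, from -0.575 with Calr and Pdia3 to 0.479 with Dnajb9. In the ATF4 arm, Psat1 varied with Mthfd2 (r = 0.69) and Phgdh (0.62), and Shmt2 with Phgdh (0.57), while Asns was nearest to Vldlr at only 0.43. The sensors varied with each other: Ern1 with Atf6 (0.76) and Eif2ak3 with Atf6 (0.68). Among all tested genes, those nearest to Hspa5 were Hspa8 (r = 0.80), the cytosolic Hsp70, St13 (0.79), Lman1 (0.78), Hdlbp (0.76) and Rab1a (0.76). Nearest to Asns were Rnf141 (0.66), Cryab (0.66), Bag1 (0.65), Ankrd29 (0.64) and Hilpda (0.64).

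**Figure D4:**
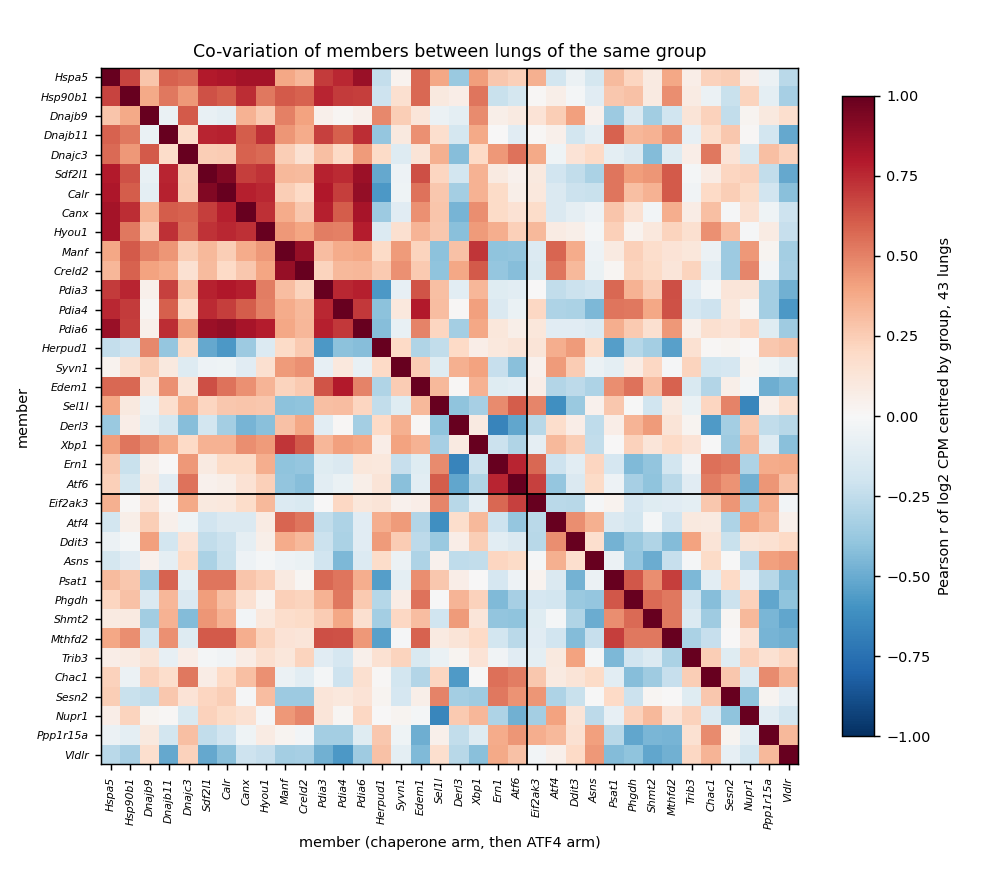
Pearson r (colour) between each pair of the 36 genes over log2 CPM centred by group in 43 lungs, with the chaperone arm first on both axes and lines between the arms. The block of the chaperone arm holds most of the high values, with a median of 0.28 against -0.03 in the ATF4 block. Herpud1 has values of both signs there, with a median of -0.21.

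Within single groups, 36 relations were computed, 12 gene pairs in each of 3 groups, with permutation p-values adjusted over the 36. Hspa5 and Pdia4 varied together in all 3 groups: r = 0.83 in nintedanib lungs (permutation p = 3e-05, adjusted 0.00027), 0.70 in vehicle lungs (permutation p = 0.0027, adjusted 0.014) and 0.82 in control lungs (permutation p = 0.006, adjusted 0.027). The rho of this pair was 0.81 with nintedanib, 0.80 with vehicle and 0.84 in control lungs. Hspa5 and Hsp90b1 had r = 0.84 in nintedanib lungs (adjusted p = 0.00027, permutation test), and r = 0.55 in vehicle lungs and 0.70 in control lungs did not pass (adjusted p = 0.071 each, permutation test). For Hspa5 and Pdia4 without the 2 lungs farthest from the median of Hspa5, r was 0.73 with nintedanib, 0.89 with vehicle and 0.82 in control lungs. For Hspa5 and Hsp90b1 without those lungs, r was 0.75 with nintedanib, 0.82 with vehicle and 0.58 in control lungs. Hspa5 and Atf4 had r = -0.23 with nintedanib, -0.22 with vehicle and 0.10 in control lungs, with permutation p from 0.38 to 0.78. Hspa5 and Asns had r = -0.25, -0.16 and -0.01 in the same groups, with permutation p from 0.34 to 0.97. Neither relation passed in any group. For Hspa5 and Herpud1, r was 0.18 with nintedanib, -0.58 with vehicle and -0.62 in control lungs. None of these passed (adjusted p = 0.66, 0.057 and 0.13, permutation test).

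Derl3 had a median r of -0.18 with the other genes of its arm and varied with plasma cell genes. With the immunoglobulin joining chain gene Jchain, r was 0.81 in nintedanib lungs (permutation p = 0.00016, adjusted 0.0012), 0.92 in vehicle lungs (permutation p = 2e-05, adjusted 0.00027) and 0.22 in control lungs (permutation p = 0.52). The rho was 0.90 with nintedanib, 0.90 with vehicle and 0.16 in control lungs. The p of 1e-05 for both rho of 0.90 is the smallest the permutations can give. Leaving out the 2 farthest lungs gave r = 0.81 with nintedanib, 0.88 with vehicle and -0.19 in control lungs. Libraries of the largest number series alone gave r = 0.79 with nintedanib and 0.94 with vehicle. With Mzb1, a plasma cell co-chaperone, r was 0.62 in nintedanib lungs and 0.80 in vehicle lungs (adjusted p = 0.03 and 0.0017, permutation test). Summed markers of plasma and B cells had 56.7 to 520 CPM with nintedanib, 81.9 to 1297 CPM with vehicle and 225 to 356 CPM in control lungs, and none was at 0 in every library. Of those 9 markers 1 fell with nintedanib, beside 4.10% of all tested genes. In bleomycin vehicle lungs 1 of these markers rose and 8 fell, beside 29.5% and 28.3% of all tested genes. The part of plasma and B cell markers in the levels of Derl3 was not tested.

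Psat1 varied with the collagen gene Col1a1, at r = 0.85 in nintedanib lungs (permutation p = 2e-05, adjusted 0.00027), 0.59 in vehicle lungs (permutation p = 0.019, adjusted 0.057) and -0.09 in control lungs (permutation p = 0.82). The rho was 0.90 with nintedanib (permutation p = 1e-05, adjusted 0.00012), 0.65 with vehicle (permutation p = 0.0074, adjusted 0.025) and -0.20 in control lungs (permutation p = 0.58). In vehicle lungs rho thus passed adjustment and r did not. Without the 2 lungs farthest in Psat1, r was 0.84 with nintedanib and 0.44 with vehicle, and in the largest number series it was 0.85 and 0.51. Hspa5 and Col1a1 gave r = 0.08 in nintedanib lungs, 0.62 in vehicle lungs and 0.30 in control lungs, and the vehicle value alone passed adjustment (adjusted p = 0.033, permutation test). The difference of these r between groups was not tested. Summed fibroblast markers had 2699 to 8189 CPM with nintedanib, 2352 to 17343 CPM with vehicle and 1950 to 2302 CPM in control lungs, with none of the 10 at 0 in every library. Of the 10, 1 rose and 1 fell with nintedanib, beside 3.21% and 4.10% of all tested genes. In bleomycin vehicle lungs 6 of the 10 rose and 1 fell, beside 29.5% and 28.3% of all tested genes. The part of fibroblast markers in the rise of Psat1 was not tested.

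Neighbouring pathways were read from lists of other genes. In bleomycin vehicle against control lungs, 29.5% of all tested genes rose and 28.3% fell. Cytosolic heat shock genes moved most with nintedanib: 10 of 15 rose and 0 fell, with a median of 0.25 on the log2 scale, beside the 3.21% of all tested genes that rose. Hsph1, an Hsp110 exchange factor, had 44.6 to 132 CPM with nintedanib (median 81.4), 35.3 to 65.3 CPM with vehicle (median 53.3) and 40 to 78.2 CPM in control lungs (median 54.3). Its upper nintedanib lungs lay beyond all others, and it rose by 0.65 ± 0.11 (adjusted p = 0.00036). Hsp90aa1 rose by 0.31 ± 0.06 (adjusted p = 0.0027) and Hspa4l by 0.36 ± 0.08 (adjusted p = 0.0077). Without the Adipoq-holding libraries 6 of the 15 rose, beside 248 of all 15276 genes tested in that fit. In bleomycin vehicle against control lungs the same list split, with 4 up, of which the smallest p were for Hspa4 at 0.29 ± 0.04, Hspa8 at 0.33 ± 0.09 and Dnajb1 at 0.22 ± 0.08. The 3 that fell there were Hsf1, the heat shock factor itself, at -0.17 ± 0.04, Hspa1a at -0.51 ± 0.19 and Ahsa1 at -0.12 ± 0.05. Hspa1a and Hspa1b are near-identical copies, so their separate values are uncertain.

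In the other ER lists most genes rose in bleomycin vehicle lungs for degradation and for translocation, and 9 of 18 for folding. Over all tested genes 29.5% rose and 28.3% fell there, and 3.21% rose and 4.10% fell with nintedanib. Of 18 further folding genes 9 rose and 2 fell in bleomycin vehicle lungs, with the smallest p for P4hb, a disulphide isomerase and collagen prolyl hydroxylase subunit, at 0.53 ± 0.06, Ppib at 0.36 ± 0.06 and Erp29 at 0.38 ± 0.07. Pdia5 at -0.35 ± 0.08 and Ero1b at -0.24 ± 0.07, an oxidase of disulphide formation, were the 2 that fell. With nintedanib 3 of the 18 rose (Txndc11, 0.14 ± 0.04; Fkbp2, 0.15 ± 0.05; Fkbp14, 0.29 ± 0.09) and Erp29 fell by 0.17 ± 0.06. Of 14 further degradation genes 10 rose and 2 fell in bleomycin vehicle lungs, among them Vcp, the extraction ATPase, up by 0.36 ± 0.05, with Faf2 and Nploc4, its co-factors, each up by 0.29 ± 0.04. Herpud2, the relative of Herpud1, fell by 0.17 ± 0.04, as did Selenos by 0.17 ± 0.06. With nintedanib 0 of these 14 passed in edgeR. At an unadjusted p under 0.05, 4 of the 14 were higher, beside 1699 of all 14836 tested genes. DESeq2 called 1 of the 14 higher, beside 601 of all tested genes. Of 20 translocation and export genes 13 rose and 2 fell in bleomycin vehicle lungs, where Kdelr3, a retrieval receptor, rose by 1.06 ± 0.16, Ssr2 by 0.53 ± 0.06 and Surf4 by 0.35 ± 0.06. Sec62 fell by 0.24 ± 0.07 and Sec63, the J-domain partner of BiP at the translocon, by 0.20 ± 0.04. Sec63 was the 1 gene of this list that rose with nintedanib, by 0.14 ± 0.04 (adjusted p = 0.024).

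Among 19 other regulators of the response, 9 rose and 4 fell in bleomycin vehicle lungs (47.4% and 21.1%), beside 29.5% and 28.3% of all tested genes. Bax and Bak1, the cell death effectors, rose by 0.62 ± 0.05 and 0.63 ± 0.09, and Eif2s1, the eIF2 alpha subunit, by 0.48 ± 0.06. Crebrf, a regulator of CREB3, fell by 0.60 ± 0.07 and Ddrgk1 by 0.31 ± 0.05. Ern2, the mucosal relative of Ern1, had 0 to 3.02 CPM with nintedanib (median 0), 0 to 0.192 CPM with vehicle (median 0) and 0 to 2.19 CPM in control lungs (median 0.738). It passed as higher with nintedanib (adjusted p = 0.023) and as lower in bleomycin vehicle lungs (adjusted p = 0.00024), and these levels rest on few reads. In nintedanib lungs the summed airway secretory markers stood at 9061 to 21654 CPM, against 5199 to 20506 CPM in vehicle lungs and 17341 to 31485 CPM in control lungs. Of those 10 markers 5 rose with nintedanib, beside 3.21% of all tested genes, and 8 fell in bleomycin vehicle lungs, beside 28.3%. None was at 0 in every library, and the part of these markers in Ern2 was not tested.

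Of 24 further ATF4 targets 9 rose and 5 fell in bleomycin vehicle lungs (37.5% and 20.8%). Over all tested genes 29.5% rose and 28.3% fell there, and 3.21% rose and 4.10% fell with nintedanib. Gdf15, a stress cytokine, had 4.19 to 16.2 CPM with nintedanib (median 10.7), 6.19 to 14.3 CPM with vehicle (median 9.83) and 0.699 to 2.65 CPM in control lungs (median 1.7). It separated all bleomycin lungs from the control lungs, with a rise of 2.51 ± 0.19 in bleomycin vehicle lungs (adjusted p = 6.8e-14). Atf3 rose by 1.19 ± 0.16 and Aldh18a1, of proline synthesis, by 0.78 ± 0.12. Atf5, a relative of Atf4, fell by 0.90 ± 0.13, Slc1a5, a glutamine carrier, by 0.51 ± 0.07 and Cbs, of cysteine synthesis, by 1.06 ± 0.20. With nintedanib 3 of the 24 rose: Cth by 0.53 ± 0.12 and Cbs by 0.68 ± 0.18, the paired enzymes of cysteine synthesis, and Atf5 by 0.36 ± 0.11 (adjusted p = 0.0047, 0.017 and 0.038). Of 12 cytosolic aminoacyl-tRNA synthetases 9 rose in bleomycin vehicle lungs, with the smallest p for Gars (0.24 ± 0.05), Aars (0.29 ± 0.06) and Tars (0.19 ± 0.04). With nintedanib 3 of the 12 rose: Cars by 0.20 ± 0.04, Mars by 0.15 ± 0.04 and Iars by 0.17 ± 0.05. Of 9 mitochondrial chaperones and proteases 0 passed with nintedanib in edgeR and in DESeq2. At an unadjusted p under 0.05, 1 of the 9 was higher, beside 1699 of all 14836 tested genes. In bleomycin vehicle lungs 4 of the 9 fell, with the smallest p for Clpx at -0.14 ± 0.04, Clpp at -0.17 ± 0.06 and Lonp1 at -0.11 ± 0.04.

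**Figure D5:**
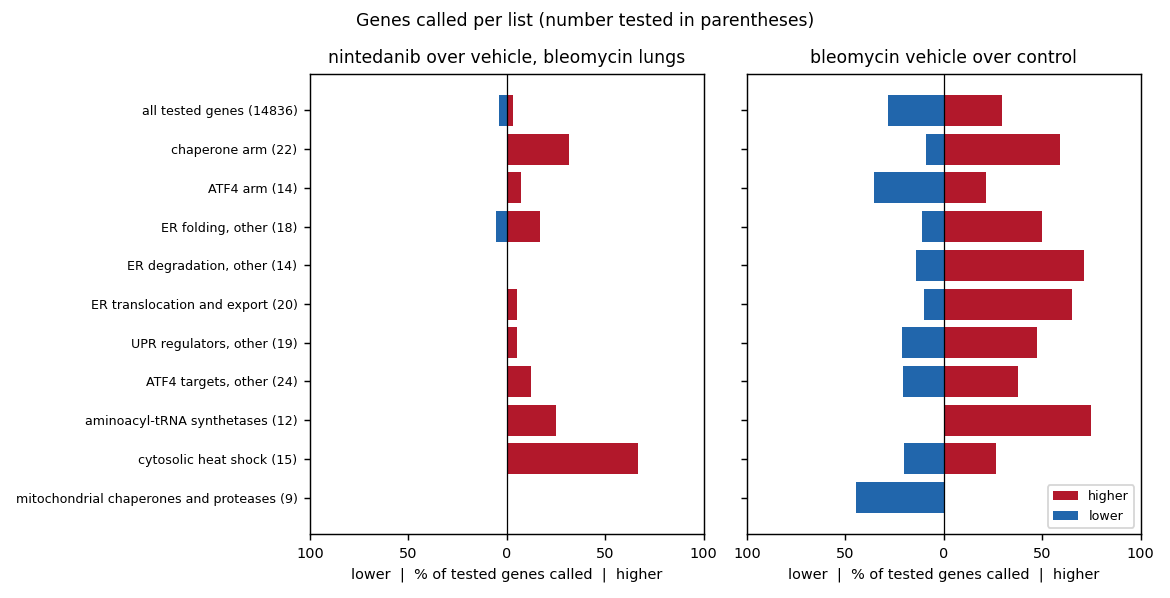
Share of tested genes (horizontal axis, percent) that rose (red, right) or fell (blue, left) in each list (vertical axis, number tested in parentheses) for nintedanib over vehicle and for bleomycin vehicle over control. Under nintedanib the cytosolic heat shock list has 10 of 15 and the chaperone arm 7 of 22 higher, against 3.21% of all tested genes.

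Markers of other cells moved in the same comparisons. Over all tested genes 3.21% rose and 4.10% fell with nintedanib over vehicle, and 29.5% rose and 28.3% fell in bleomycin vehicle lungs. With nintedanib over vehicle, 5 of 7 adipocyte markers and 6 of 8 erythrocyte and platelet markers rose, while 0 of 10 macrophage, 0 of 8 alveolar type 2 and 0 of 6 alveolar type 1 markers passed in edgeR. At an unadjusted p under 0.05, 1 macrophage marker was lower and 1 alveolar type 2 marker higher. Of all 14836 tested genes, 1911 were lower and 1699 higher at that unadjusted p. DESeq2 also called 1 alveolar type 2 marker higher, beside 601 of all tested genes. The summed adipocyte markers ranged over 40.8 to 1212 CPM with nintedanib, 41.7 to 73.6 CPM with vehicle and 37.1 to 2843 CPM in control lungs, and the summed erythrocyte and platelet markers over 900 to 2670, 461 to 2191 and 1788 to 3152 CPM in the same groups. In bleomycin vehicle lungs all 10 macrophage markers rose, with summed levels of 1339 to 5990 CPM against 458 to 736 CPM in control lungs. In the same lungs 5 of 7 endothelial markers fell, with 1727 to 4339 CPM against 3904 to 5627 CPM in control lungs. No marker of these lists was at 0 in every library. Without the libraries that hold Adipoq, the nintedanib steps of Hspa5, Dnajb9, Dnajc3 and Herpud1 were 0.29, 0.25, 0.19 and 0.30 and passed. The part of the other markers in the results of both arms was not tested.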

How the data were processed

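Per the labels' protocols, polyadenylated RNA of the inferior lobe was made into directional libraries and sequenced as single-end reads. The submitters' processing notes name STAR 2.7.0f, R 3.6.0 and GRCm38; the counter, its strand setting and the annotation are not given in the sources at hand, so reads of a gene and an antisense partner may not be separated. The authors deposited raw read counts per Ensembl gene, all protein-coding in GENCODE vM21 and none mitochondrial, which supplied symbols and coordinates.

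From these counts, genes passing filterByExpr (minimum count 10, total 15; 14836 genes holding 99.96% of counts) were tested with edgeR 4.0.16 (R 4.3.3): TMM factors, 1 coefficient per group over 43 libraries, robust quasi-likelihood F test, two-sided, Benjamini-Hochberg adjustment over all tested genes, threshold 0.05. The median biological coefficient of variation was 13.6%. Log2 CPM used a prior count of 2. Correlations used 100000 permutations in SciPy 1.17.1. The fit and the permutation test were tested on simulated data. No 2 libraries of a group agreed within sampling noise (lowest chi-square per degree of freedom over 301 pairs, 5.217).

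Alternatives were RLE factors, library totals, no low-count filter, DESeq2 1.42.0, a fit of only the groups compared, the largest number series alone or the series as a covariate, leaving out libraries with Adipoq at 1 CPM or more, and 2 surrogate variables (sva 3.50.0). Library numbers in the labels fall into 3 series of 33, 4 and 6 libraries, whose meaning the labels do not state; the second holds no control library, and the smaller series hold at most 3 libraries of a group, so no value was computed within them. The member genes, arms and lists were chosen with earlier results of these data known; 246 of 247 list genes were matched. Values per group are given for the sensors and factors, the 10 genes with the smallest p under nintedanib, the 6 largest rises and 6 largest falls with bleomycin, and up to 3 genes per list and direction; the values per group of Dnajb11 and Derl3 were added after their values were seen. Promoter windows for 33 of the 36 genes came from RefSeq on GRCm38.p6.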

Additional observations from a re-analysis of the deposited data

Results flagged for a closer look

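In the 10 control lungs, the highest and the lowest library of each of the 36 genes were compared with the next one on the log2 CPM scale, as the gap divided by the whole range, and 7 genes had a gap above the 95% critical value of Dixon's test for 10 samples. For normally distributed values, chance gives such a gap in about 0.05 of the genes. The 36 genes share the same 10 lungs, so their gaps are not independent. The other groups were not put to this test. The lowest control lung stood apart for Dnajb9 (ratio 0.489, 44.4 CPM with the next at 54.2 CPM), Dnajc3 (0.579, 187 with the next at 217 CPM), Creld2 (0.494, 41.6 with the next at 47 CPM) and Psat1 (0.571, 8.44 with the next at 11.5 CPM). The highest control lung stood apart for Ern1 (0.576, 93 with the next at 77.9 CPM), Ddit3 (0.489, 14.5 with the next at 11.6 CPM) and Vldlr (0.534, 88.5 with the next at 73.3 CPM). These are descriptions of the control group, and no library was left out for them.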

How the results depend on the processing

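No paired analysis was possible because the replicate numbers only follow the order of the samples and pair no mice. With nintedanib over vehicle, 7 chaperone-arm genes rose, 4 without the Adipoq-holding libraries and 14 with 2 surrogate variables; 1 ATF4-arm gene rose, 2 with library totals, 2 in DESeq2, 2 with the number series as covariate and 0 when only these groups were fitted. In bleomycin vehicle against control lungs, 13 chaperone-arm genes rose and 8 without the Adipoq-holding libraries; 2 fell, and 1 in the largest number series, without the Adipoq-holding libraries or with surrogate variables. Of nintedanib against control, 1 chaperone-arm gene fell, and 0 without the Adipoq-holding libraries. The cause of these moves was not tested. Leaving out Adipoq-holding libraries takes away 5 nintedanib, 0 bleomycin vehicle and 8 control libraries, which leaves 2 control mice. Values near 0 turned sign against control for nintedanib: Ern1 to -0.01 without the Adipoq-holding libraries, Atf6 to -0.05 with library totals, -0.01 with only these groups and -0.04 without the Adipoq-holding libraries, and Eif2ak3 to -0.00 with library totals. The calls of nintedanib over vehicle were kept for 8 of 8 genes in 3 alternatives and for 4 of 8 without the Adipoq-holding libraries. Of 15276 genes tested without those libraries, 248 were higher and 277 lower for nintedanib over vehicle. For bleomycin vehicle over control 2050 were higher and 1604 lower, and for nintedanib over control 1800 and 1497. Over all genes, library totals gave 369 higher and 813 lower for nintedanib over vehicle, 3736 and 4882 for bleomycin vehicle over control, and 3250 and 4844 for nintedanib over control; surrogate variables gave 746 and 562 and a fit of only the 2 groups 254 and 386 for nintedanib over vehicle. Derl3 had the lowest level of the 36 genes, where counting error weighs most.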
